A study of Mus musculus with 47 samples.

Results

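The nuclear genes for the subunits of the respiratory chain and of the mitochondrial ATP synthase were followed in mouse cortex by diet and time of day. Members were the protein-coding genes of GENCODE M21 in the deposited TPM and count tables whose symbols begin with Nduf followed by a, b, c, s or v (complex I, without the Ndufaf assembly factors), Sdha to Sdhd (complex II), Uqcr (complex III), Cox4 to Cox8 (complex IV) or Atp5 (ATP synthase). The rule found 86 genes of 54281 in the TPM table, all of them also in the count table, with 38 in complex I, 4 in complex II, 8 in complex III, 18 in complex IV and 18 in ATP synthase. Of these, 84 had a mean of at least 1 TPM (transcripts scaled to a fixed total per library) over all libraries and were tested. The remaining 2 were Cox8c, listed at 0 in every library, and a second gene with the symbol Atp5o, a readthrough gene that shares exons with Atp5o and with Donson.

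RNA was sequenced from the cortex of 47 male C57BL/6J mice without any genetic change, 1 library per mouse. A group of 23 mice ate control chow, and 24 mice ate chow with PLX5622 at 1200 ppm for 10 days. PLX5622 is an inhibitor of CSF1R, a receptor on which microglia depend for survival, and the inhibitor reaches every tissue of the animal. Cortex was collected every 4 h from ZT2 to ZT22, where Zeitgeber time (ZT) counts hours from lights on, with 4 mice per diet at each of the 6 times but 3 control mice at ZT14. Library totals ran from 16597987 to 27626161 counts, and mitochondrially encoded genes took 6.46% to 10.0% of them. All 14 microglial marker genes examined were lower in PLX5622 mice, with a median log2 difference of -3.13, and in bulk RNA fewer cells of a type and less RNA per cell cannot be told apart. Markers of excitatory neurons were high in all libraries, with a summed level of 2827 to 4970 TPM, while markers of striatum summed to 244.7 to 1241 TPM and those of choroid plexus to 161 to 1475 TPM.

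Complexes I and II feed electrons from NADH and succinate into ubiquinone, complex III passes them to cytochrome c, and complex IV hands them to oxygen. Complexes I, III and IV pump protons across the inner mitochondrial membrane, and ATP synthase lets the protons flow back and makes ATP. Most subunits are encoded in the nucleus and a few in mitochondrial DNA, and several subunits of complex IV exist as a common form and as forms typical of muscle, lung or testis. Neurons draw most of their ATP from this pathway.

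Together the 86 genes made up 1.18% to 1.54% of the counts of a library. Their summed level was 37551 to 46918 TPM in control mice, with a median of 43512, and 38302 to 48403 TPM in PLX5622 mice, with a median of 42896. The ranges of the diets overlapped over nearly their whole width. Median levels of the tested genes were 264 TPM in complex I, 146 in complex II, 466 in complex III, 407 in complex IV and 455 in ATP synthase.

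The highest levels belonged to ATP synthase and complex IV. Atp5b, the catalytic beta subunit of ATP synthase, had 3004.9 ± 236 TPM (SD, n = 23) in control and 3004.4 ± 259.6 (n = 24) in PLX5622 mice. Next came 3 subunits of cytochrome c oxidase, with Cox8a at 2906 ± 221 and 2822 ± 198 TPM, Cox6a1 at 2529 ± 229.9 and 2350.2 ± 254 TPM and Cox4i1 at 2219 ± 176 and 2154 ± 198 TPM in control and PLX5622 mice. In ATP synthase, Atp5e, the small epsilon subunit, followed with 1630.4 ± 204 and 1559 ± 196 TPM and Atp5mpl, a small membrane subunit, with 1344 ± 188 and 1377 ± 170.3 TPM. Cox8a and Atp5b lay less than 2 SD apart, as did Cox6a1 and Cox4i1.

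Complex I and complex III were led by small accessory subunits. Ndufa4, which this rule counts with complex I by its symbol but whose protein has since been placed with complex IV, had a mean of 1175 TPM over all libraries, followed by Ndufb9 with 714 and Ndufa3 with 636. In complex III, Uqcr11 (976 TPM), Uqcr10 (971 TPM) and the hinge protein gene Uqcrh (905 TPM) stood above the Rieske iron-sulfur protein gene Uqcrfs1 (151 TPM), the lowest of the complex. The 4 genes of succinate dehydrogenase, complex II, had the narrowest span. Their means over all libraries were 236 TPM for the flavoprotein gene Sdha, 170.1 TPM for the iron-sulfur gene Sdhb, and 123 and 108 TPM for the membrane anchors Sdhd and Sdhc.

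**Figure D1:**
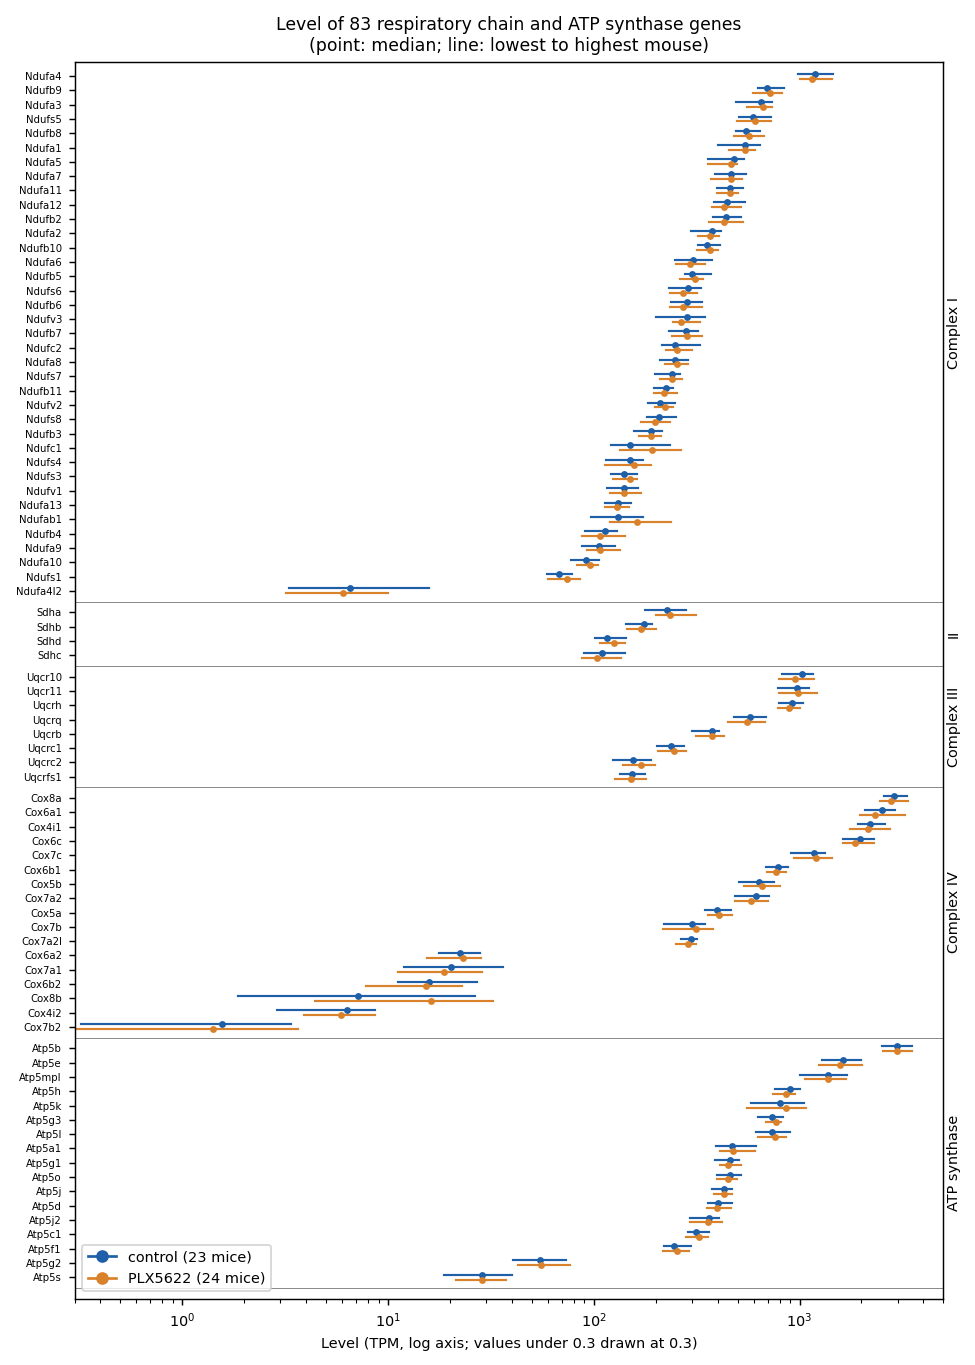
Level of 83 of the 84 tested genes by complex, in TPM on a log axis, with the median as a point and the lowest to highest mouse as a line (control blue, 23 mice; PLX5622 orange, 24 mice). The restricted forms Cox6a2, Cox7a1, Cox6b2, Cox8b, Cox4i2, Cox7b2 and Ndufa4l2 reach at most 36.3 TPM in any mouse, and Atp5b has the highest mean, 3004.9 TPM in control mice.

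Common forms of complex IV subunits exceeded the restricted forms by a wide margin. The restricted form of subunit 4, Cox4i2, known from lung and from pericytes, had 6.11 TPM against 2186 TPM for Cox4i1, a ratio of 357. Cox8a exceeded Cox8b, the form of striated muscle and brown fat, 219-fold. Cox6a1 exceeded the muscle form Cox6a2 108-fold, Cox7a2 exceeded the muscle form Cox7a1 29.3-fold, and Cox6b1 exceeded the testis form Cox6b2 49.1-fold. Cox7b2, another gene typical of testis, was the lowest tested member at 1.55 TPM. In complex I, Ndufa4 exceeded its paralog Ndufa4l2, a gene induced by low oxygen, 179-fold.

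Among the restricted forms the share moved most with diet for Cox8b. It made 0.333% ± 0.206 of the summed Cox8a and Cox8b level in control and 0.566% ± 0.203 in PLX5622 mice. The share of Cox7a1 was 3.36% ± 0.755 and 3.20% ± 0.656, that of Cox6a2 was 0.885% ± 0.123 and 0.963% ± 0.200, and that of Cox4i2 was 0.277% ± 0.0695 and 0.282% ± 0.050. The 3 genes for the identical c subunit of the ATP synthase rotor were used unequally, with Atp5g3 at 745 TPM, Atp5g1 at 455 TPM and Atp5g2 at 54.6 TPM.

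The first comparison asked which members differed between PLX5622 and control mice across all times of day. With limma, on log2(TPM + 1) with diet and the cosine and sine of ZT as terms and Benjamini-Hochberg adjustment over 14580 genes at a threshold of 0.05, 3 of the 84 members were higher in PLX5622 mice and 0 were lower. Over all genes tested, 0.871% were called higher and 2.58% lower. The called members were Ndufab1 and Ndufc1 of complex I and Cox8b of complex IV. At an unadjusted p under 0.05 there were 8 members (9.52%), against 16.2% of all genes. Of the members, 40 had a positive and 44 a negative difference.

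Most members were measured closely enough to bound the difference. The 95% interval of the diet difference, taken as the limma standard error with 43 residual degrees of freedom, lay wholly within 1.2-fold in either direction for 77 of the 84 members (91.7%), and for 76.0% of all genes tested. All tested members of complex II, complex III and ATP synthase were among these, with 35 of 38 in complex I and 13 of 17 in complex IV. The median log2 difference over the members was -0.0020, with a median standard error of 0.039, and 0.031 over all genes tested. By complex the medians were 0.0081 for complex I, 0.025 for complex II, -0.018 for complex III, -0.042 for complex IV and 0.018 for ATP synthase. When libraries were rescaled by median-of-ratios factors the median of all genes moved to 0.0089 and that of the members to -0.026.

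**Figure D2:**
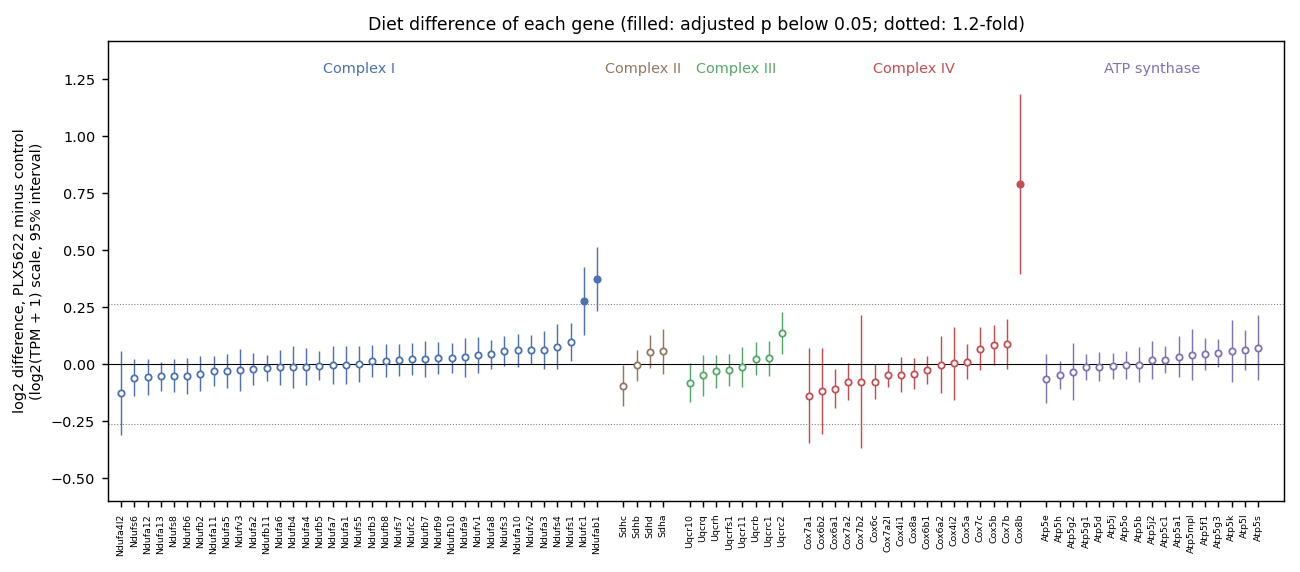
Difference between PLX5622 and control mice for 83 of the 84 tested genes, on the log2(TPM + 1) scale, with 95% intervals and ordered by size within each complex. Filled points passed the adjusted threshold (Ndufc1, Ndufab1 and Cox8b), and the dotted lines mark 1.2-fold.

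The catalytic core subunits of complex I named here did not pass the threshold in this limma fit on TPM. Ndufs1, the large iron-sulfur subunit, had the largest difference of them, with 68.5 ± 6.34 TPM in control and 73.6 ± 7.20 TPM in PLX5622 mice, a log2 difference of 0.098 ± 0.042 (SE) and an adjusted p of 0.22 in limma. Ndufs1 passed in limma with the mitochondrial share of counts as a covariate (adjusted p = 0.043, 987 of all genes called). It also passed with 3 residual principal components (adjusted p = 0.0026, 2428 called). Ndufv2, part of the NADH-oxidising module, had a log2 difference of 0.064 and Ndufs3 one of 0.057. Ndufv1, which holds the flavin site, differed by 0.039, and Ndufs7 and Ndufs8 by 0.020 and -0.051.

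Ndufab1 (chr7:122085403-122101886 on GRCm38, minus strand) had the largest difference in complex I. This gene encodes the mitochondrial acyl carrier protein, which is also a subunit of complex I. Control mice spanned 97.1 to 174 TPM (median 131), and PLX5622 mice spanned 120.0 to 238 TPM (median 162). In 9 of 24 PLX5622 mice the level exceeded every control mouse. The log2 difference was 0.37 ± 0.070 (SE), with an adjusted p of 0.000183 in limma, and PLX5622 means were higher at 5 of the 6 times.

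Ndufc1 (chr3:51404677-51408988, minus strand), a small accessory subunit in the membrane arm, was also higher in the TPM table. Control mice had 122 to 234 TPM (median 150.0), and PLX5622 mice had 134 to 265 TPM (median 191). Only 3 PLX5622 mice exceeded the highest control mouse, so the diets overlapped widely. The log2 difference was 0.28 ± 0.074 (SE), with an adjusted p of 0.0188 in limma. With TPM rescaled by median-of-ratios factors it was 0.25, with an adjusted p of 0.083.

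Neither difference was found in the deposited counts of the same libraries. In CPM, counts scaled to the same library total, Ndufab1 had 68.4 ± 7.04 in control and 65.7 ± 5.09 in PLX5622 mice, and Ndufc1 had 46.8 ± 5.87 and 47.3 ± 6.42. In edgeR's quasi-likelihood test the log2 differences were -0.072 (adjusted p = 0.282) and 0.00021 (adjusted p = 0.998). At 1048 to 1869 counts of Ndufab1 and 688 to 1460 of Ndufc1 per library, counting error was small beside the spread between mice. These genes were therefore called on the authors' transcript-based TPM alone, with a direction for Ndufab1 that turned in the counts, and which value is nearer to the RNA in the tissue was not tested.

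The ratio of TPM to CPM moved with diet and time for both genes. For Ndufab1 it had a mean of 1.93 ± 0.383 in control and 2.59 ± 0.480 in PLX5622 mice, and for Ndufc1 3.39 ± 0.662 and 4.06 ± 0.573. By group, the Ndufab1 ratio was highest in PLX5622 mice at ZT18 (3.08) and ZT2 (3.06) and, among control mice, at ZT14 (2.57), and lowest in control mice at ZT10 (1.66). For Ndufc1 it was likewise highest in PLX5622 mice at ZT18 (4.73) and, among control mice, at ZT14 (4.57), and lowest in control mice at ZT22 (2.97). Between libraries the log2 ratio had an SD of 0.346 for Ndufab1 and 0.265 for Ndufc1, against a median of 0.0984 over the 77 members with at least 100 counts in every library and 0.110 over 10445 genes of that depth. GENCODE M21 gives Ndufab1 10 transcripts and Ndufc1 4. Ndufv1, with 14, and Ndufs1, with 13, had SDs of the log2 ratio of 0.084 and 0.089. The part of transcript number in the ratio was not tested.

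For the other members the tables differed little. The diet difference in limma on TPM and in edgeR on counts lay within 0.1 of each other on the log2 scale for 81 of 84 members. The 3 members further apart were Ndufab1, Ndufc1 and Cox5b, which was 0.084 in TPM and -0.037 in counts. A gap over 0.25 was found for 2 members and for 2.21% of 14184 genes tested on both scales.

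**Figure D3:**
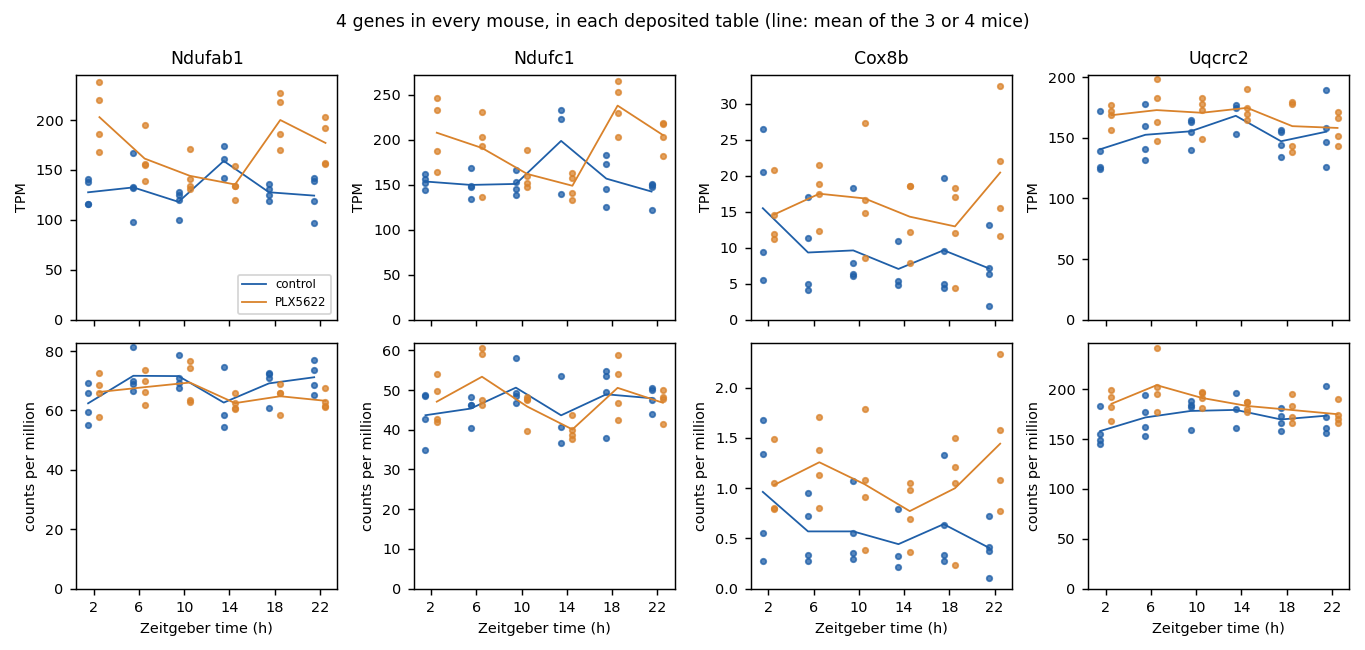
Ndufab1, Ndufc1, Cox8b and Uqcrc2 in every mouse by Zeitgeber time in hours, in TPM (upper row) and in CPM (lower row), with control in blue, PLX5622 in orange and lines through the means of 3 or 4 mice. Ndufab1 and Ndufc1 have higher PLX5622 means at 5 of 6 times in TPM, and at 1 and 3 of 6 times in CPM, Cox8b means are higher at 5 of 6 times in TPM and at all 6 in CPM, and Uqcrc2 is slightly higher in PLX5622 mice in both.

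Cox8b (chr7:140898945-140900446, minus strand) was higher in PLX5622 mice in both tables. Control mice had 1.88 to 26.5 TPM (median 7.18), and PLX5622 mice 4.4 to 32.6 TPM (median 16.1). The ranges overlapped, with 2 PLX5622 mice above every control mouse. The mean TPM was higher in PLX5622 mice at 5 of the 6 times, and at ZT2 it was 15.5 in control and 14.6 in PLX5622 mice. The log2 difference was 0.79 ± 0.20 (SE), with an adjusted p of 0.00945 in limma, and 0.85 with an adjusted p of 0.010 in edgeR. These are low counts, from 2 to 30 per library in control and from 5 to 40 in PLX5622 mice. Cox8b also varied most between mice of one group, with an SD of 0.722 on the log2 scale against a median of 0.119 over the members.

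Genes of the choroid plexus, which lies in the ventricle next to the cortex, were examined beside Cox8b. Of the 10 listed, 4 were higher in PLX5622 mice (Ttr, Kl, Sostdc1 and Enpp2) and 0 were lower, with a median log2 difference of 0.33. Ttr, the transthyretin gene and the most abundant of them, had 61.1 to 1159 TPM with a median of 479 in control and 139 to 1241 TPM with a median of 780.2 in PLX5622 mice. The control mouse with the least Cox8b (1.88 TPM) also had the least Ttr, and the PLX5622 mouse with the most Cox8b (32.6 TPM) the most. Control mice with 20.6 and 19.7 TPM of Cox8b had 1060 and 1159 TPM of Ttr. The order did not hold in every mouse. The control mouse with the most Cox8b (26.5 TPM) had 780.6 TPM of Ttr, below the control maximum of 1159. A PLX5622 mouse at ZT14 with 1065 TPM of Ttr had 12.3 TPM of Cox8b. No correlation was computed. With the mean log2 level of the 10 genes as a covariate, a setting added after the data were seen, the Cox8b difference was 0.37, with an adjusted p of 0.33 in limma, and Ndufab1 (0.39) and Ndufc1 (0.29) stayed past the threshold. Of 10 listed muscle genes 3 reached the filter, and 0 of them were called.

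**Figure D4:**
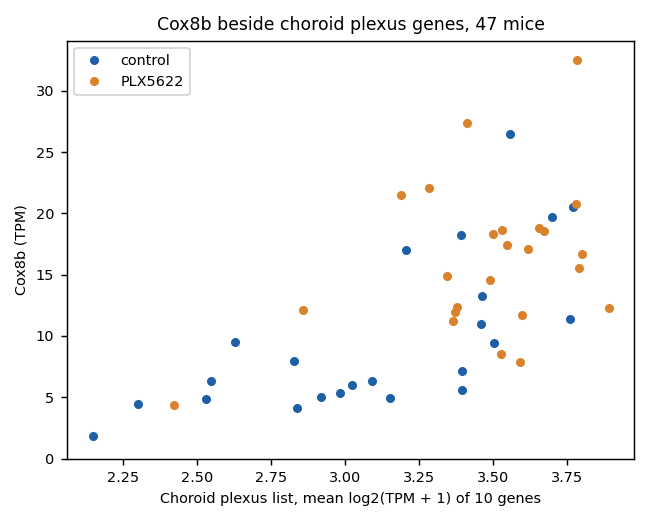
Cox8b in TPM against the mean log2(TPM + 1) of 10 choroid plexus genes in each of the 47 mice (control blue, PLX5622 orange). The 5 mice with the lowest choroid plexus levels have 1.88 to 6.32 TPM of Cox8b, and the mouse with the highest level has 12.3 TPM. The levels of the list reach from 2.15 to 3.77 in control and from 2.42 to 3.89 in PLX5622 mice.

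Uqcrc2 (chr7:120635176-120659524, plus strand), a core protein of complex III, came closest to the threshold among the members not called. Control mice spanned 125 to 189 TPM (median 155) and PLX5622 mice 138 to 198 TPM (median 170.4). The PLX5622 mean was higher at all 6 times, and only 2 PLX5622 mice exceeded every control mouse. The log2 difference was 0.14 ± 0.045 (SE), with an adjusted p of 0.091 in limma on TPM. In edgeR on counts it was 0.10, with an adjusted p of 0.0401, where 2 members were called (Uqcrc2 and Cox8b), both higher, against 1.81% of 18274 genes called higher. Leaving out 1 control mouse (ZT22, replicate 3) also took it past the threshold on TPM, with an adjusted p of 0.029 in limma. It passed in DESeq2 (adjusted p = 0.028) and in limma on FPKM computed from the counts (0.029). On TPM in limma it passed with median-of-ratios scaling (0.022), upper-quartile scaling (0.024), the mitochondrial share as a covariate (0.0069) or 3 residual principal components (0.00058). Those components came from residuals of the diet and time fit, so the difference stayed at 0.14 and only its spread shrank. With them 2428 of all genes were called for diet, against 503 without, so passing there is no separate support for Uqcrc2. In 8 of the 15 alternatives run it was still not called.

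The smallest p of complex II for diet belonged to Sdhc, with a log2 difference of -0.093 ± 0.044 and an adjusted p of 0.273 in limma. Among the common forms of complex IV, Cox6a1 had -0.11 ± 0.043 with an adjusted p of 0.180, and past the threshold without 1 PLX5622 mouse (ZT10, replicate 2) with an adjusted p of 0.0425. Cox7a2 had -0.076, Cox4i1 -0.045, Cox8a -0.042, Cox6b1 -0.024, Cox5a 0.012 and Cox5b 0.084. Cox7a2l, counted with complex IV by its symbol, had -0.046. None of these passed in limma on TPM over all 47 libraries. With 3 residual principal components added, Cox6a1 (adjusted p = 0.015) and Cox7a2 (adjusted p = 0.0385) passed in limma, where 2428 of all genes were called. In ATP synthase the smallest p was that of Atp5g3, with 0.050 ± 0.030 and an adjusted p of 0.426, and the differences of the complex spanned -0.063 to 0.072.

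Promoter sequence from RefSeq on GRCm38.p6, from 250 bases before to 50 after each start, was given for 67 of the 86 members, with 72 windows in all. Shown are the 200 bases before the start of the 3 called genes, and of Cox6a1 as a common subunit whose window holds several motifs. Capitals mark matches on either strand to 5 motifs searched. Nuclear respiratory factor 1, an activator of many mitochondrial genes, was searched as GCGCATGC. The ETS family, which includes the activator GABP, was searched as CCGGAAG. The factor YY1 was searched as ATGGCGG. The general promoter factor Sp1 was searched as GGGCGG. The box near the start of many tissue-specific genes was searched as TATAAA.
Ndufab1, minus strand, chr7:122101849-122102048: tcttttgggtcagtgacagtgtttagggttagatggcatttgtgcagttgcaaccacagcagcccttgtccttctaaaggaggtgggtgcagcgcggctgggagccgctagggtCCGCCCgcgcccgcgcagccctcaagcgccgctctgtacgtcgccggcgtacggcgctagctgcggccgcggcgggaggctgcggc
Ndufc1, minus strand, chr3:51408956-51409155: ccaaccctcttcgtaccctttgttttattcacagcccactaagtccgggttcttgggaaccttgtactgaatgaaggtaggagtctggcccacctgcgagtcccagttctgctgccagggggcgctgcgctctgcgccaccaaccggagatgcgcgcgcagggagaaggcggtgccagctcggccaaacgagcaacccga
Cox8b, minus strand, chr7:140900447-140900646: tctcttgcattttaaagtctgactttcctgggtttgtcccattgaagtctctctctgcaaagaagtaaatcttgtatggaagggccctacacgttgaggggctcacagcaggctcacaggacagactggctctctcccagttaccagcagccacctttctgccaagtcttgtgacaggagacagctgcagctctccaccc
Cox6a1, minus strand, chr5:115348959-115349158: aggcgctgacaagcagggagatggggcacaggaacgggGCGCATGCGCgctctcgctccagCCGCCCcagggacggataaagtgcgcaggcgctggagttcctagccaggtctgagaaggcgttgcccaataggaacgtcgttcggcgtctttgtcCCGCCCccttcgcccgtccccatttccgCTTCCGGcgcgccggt

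The Cox6a1 window held 5 matches, among them nuclear respiratory factor 1 letters on both strands at overlapping bases, that of Ndufab1 held 1 Sp1 match, and that of Ndufc1 held none. Cox8b had no match before its start and a TATA box match just after it. Over the 72 member windows, 12.5% held the nuclear respiratory factor 1 letters, against 2.71% of all 32851 windows and 4.89% of the windows of tested genes. The ETS letters were in 20.8% of member windows, 8.86% of all and 15.9% of those of tested genes, and the YY1 letters in 15.3%, 4.06% and 7.37%. The Sp1 letters were in 40.3% of member windows, 35.7% of all and 61.7% of those of tested genes, and TATAAA in 11.1%, 13.6% and 7.14%. A match describes these letters and is not evidence of binding.

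The second comparison asked whether members followed a 24-h rhythm. With the F test of the cosine and sine of ZT over all 47 libraries in limma, 0 of 84 members passed the adjusted threshold, against 5.26% of all genes tested. At an unadjusted p under 0.05 there were 6 members (7.14%), against 19.8% of all genes. The median amplitude over the members was 0.043 on the log2 scale, against 0.073 over all genes tested. Within control mice 0 members passed, against 0.604% of all genes, with 3 at an unadjusted p under 0.05 (3.57%, against 11.9% of all genes). Within PLX5622 mice 0 passed, against 1.45% of all genes, with 16 at an unadjusted p under 0.05 (19.0%, against 13.2% of all genes).

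Sdhb had the smallest p for time. In control mice its group means ran from 163 ± 19.3 TPM at ZT2 to 179.7 ± 8.49 TPM at ZT10, and in PLX5622 mice from 158 ± 12.8 TPM at ZT22 to 181 ± 7.09 TPM at ZT10. The fitted amplitude was 0.076 on the log2 scale with a peak at ZT10.7 and an adjusted p of 0.0953 in limma. Mice of these highest and lowest groups overlapped among control mice (143.8 to 189.7 TPM at ZT2, 173.3 to 192.2 at ZT10). Among PLX5622 mice they did not, by a narrow margin (145.9 to 175.2 TPM at ZT22, 175.4 to 190.3 at ZT10). Sdhb and these groups were picked by their values, which favours separation, so the lack of overlap is not evidence of a rhythm. How often other genes separate in this way was not tested. The other smallest p-values by complex were those of Uqcrfs1 (adjusted p = 0.352), Cox7a2l (adjusted p = 0.270) and Atp5g1 (adjusted p = 0.30), all in limma.

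Ndufa4l2, the lowest and most variable member of complex I, was called for time in the counts and not in TPM as deposited. Its level was lowest at ZT18 in both diets, with 4.87 ± 1.19 TPM in control and 4.78 ± 1.43 TPM in PLX5622 mice, and highest at ZT6, with 8.06 ± 5.29 and 7.34 ± 1.84 TPM. The control mean at ZT6 included 1 mouse at 15.9 TPM, the highest of all 47, which had 3.85 CPM. In CPM the means were also lowest at ZT18, with 2.62 in control and 2.50 in PLX5622 mice. The highest CPM mean in control mice was at ZT2 (4.17, against 3.21 at ZT6) and in PLX5622 mice at ZT6 (3.69). On TPM the amplitude was 0.20, the peak ZT5.8 and the adjusted p 0.123 in limma. In edgeR on counts the adjusted p was 0.0291, the only member called for time there, against 11.3% of all genes. On TPM it was also called with median-of-ratios scaling (adjusted p = 0.043 in limma), upper-quartile scaling (0.033), the mitochondrial share as a covariate (0.016) or 3 residual principal components (0.024), and without 1 control mouse at ZT6 (replicate 2). The 3 components came from residuals of the diet and time fit and are no separate support. With them 4068 of all genes were called for time, against 767 without.

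Group means of whole complexes spanned 0.096 to 0.17 on the log2 scale within a diet, against median SDs within groups of 0.052 to 0.13. The mean log2(TPM + 1) of the complex I genes ran from 7.86 ± 0.089 at ZT2 to 7.96 ± 0.050 at ZT10 in control mice and from 7.87 ± 0.023 at ZT14 to 7.99 ± 0.032 at ZT6 in PLX5622 mice. For complex IV the control group means spanned 0.17, with a median SD within groups of 0.13. ATP synthase spanned 0.12 in control and 0.10 in PLX5622 mice, with median SDs of 0.092 and 0.053. Over all 84 genes the diets had 8.08 ± 0.080 and 8.09 ± 0.065.

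**Figure D5:**
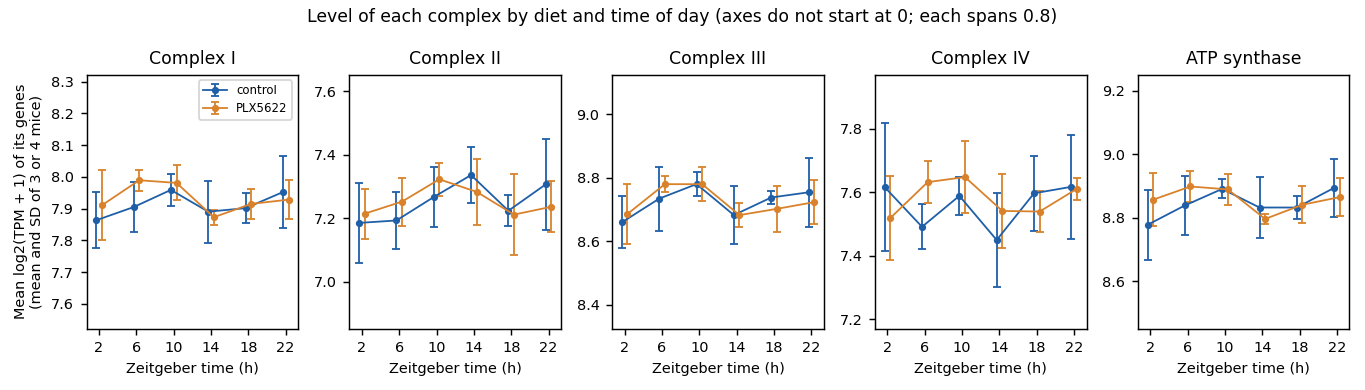
Mean log2(TPM + 1) of the tested genes of each complex by Zeitgeber time in hours, as the mean and SD of 3 or 4 mice (control blue, PLX5622 orange), on axes that do not start at 0 and all span 0.8. The range of group means in control mice is 0.096 for complex I and 0.15 for complex II.

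The third comparison asked whether the rhythm differed between the diets, by the interaction of diet with both time terms. No member and no other gene passed the adjusted threshold in limma (0 of 14580, 0.0%), and 5 members (5.95%) and 4.59% of all genes had an unadjusted p under 0.05. In rising order of p these were Ndufc1, Ndufab1, Cox6b2, Cox4i2 and Cox6a1. Ndufab1 had an amplitude of 0.26 in PLX5622 and 0.072 in control mice in TPM, and Ndufc1 0.25 and 0.12. At ZT14 the sign of the diet difference turned in TPM for both, with 159 ± 16.1 TPM of Ndufab1 in control and 135 ± 14.1 TPM in PLX5622 mice, and 199 ± 51.3 and 149 ± 13.96 TPM of Ndufc1. In CPM, ZT14 held 62.7 ± 10.7 and 62.5 ± 2.51 for Ndufab1, and 43.6 ± 8.80 and 40.1 ± 2.61 for Ndufc1, in control and PLX5622 mice. The smallest p of the other complexes for this test were those of Sdhb, Uqcr10 and Atp5k.

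Members varied together from mouse to mouse within groups, more so among members of similar coding length. After group means were removed, the mean pairwise correlation over the 47 libraries was 0.29 among the 84 members and 0.15 among all genes tested, where all points share the same libraries and their scaling. It was 0.36 within complex I, 0.42 within complex II, 0.26 within complex III, 0.29 within complex IV and 0.28 within ATP synthase, and 0.0014 between complex II and complex IV. The member closest to the rest was Atp5h, the d subunit of the ATP synthase stalk, with a correlation of 0.92 with the summed others, and Cox4i2 (-0.025) and Atp5s (0.036) were the furthest (chosen, like Atp5h, after their values were seen).

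Most members encode short proteins. The median of the longest coding length per gene was 409.5 bases, against 1395 over tested genes with a coding transcript, and 63 of 84 members (75%) were under 600 bases, against 13.2%. Short members correlated with each other at a mean of 0.36, long members at 0.55, and short with long members at 0.14. The median level was 407 TPM for short and 205 TPM for long members, and the median diet difference -0.0099 and 0.031 on the log2 scale. Ndufs1, Sdha, Atp5a1 and Uqcrc2, all large subunits, had correlations with the summed others of 0.18, 0.17, 0.16 and 0.27.

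Other genes of the pathway had 1 diet call. Among mitochondrially encoded subunits, 1 of 13 was higher and 0 lower, with a median log2 difference of -0.0042. The called gene was mt-Atp8, an ATP synthase subunit, with a log2 difference of 0.32 ± 0.081 (SE) and an adjusted p of 0.0130 in limma, and 0.46 in edgeR with an adjusted p of 0.00997. The median summed level of the 13 was 182972 TPM in control and 179224 TPM in PLX5622 mice. Of 50 assembly factors of the 5 complexes, 0 were called for diet, and the medians by complex ran from -0.071 for ATP synthase to 0.064 for complex III. Of the 10 tested electron carrier genes, among them Cycs for cytochrome c and Cyc1 for cytochrome c1, 0 were called for diet or time, and of 12 regulators, among them Ppargc1a (0.10), Nrf1 (0.0026), Gabpa (0.011) and Tfam (0.080 on the log2 scale), 0 were called. Of 13 citrate cycle enzymes 0 were called for diet. For time, the assembly factors Sdhaf1 (amplitude 0.16) and Ecsit (0.11) and the citrate cycle enzyme Idh3g (0.11) passed, at adjusted p-values of 0.000148, 0.0154 and 0.0134 in limma.

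Markers of other cell types were examined because several members are typical of 1 cell type. Mural cell genes, which stand beside Ndufa4l2 and Cox4i2, had 0 of 12 called for diet, and parvalbumin interneuron genes, which stand beside Cox6a2, had 0 of 8. The counts called were 0 of 8 for endothelial cells, 0 of 8 for excitatory neurons, 0 of 9 for striatum (median 0.18) and 0 of 5 for blood. Among 8 astrocyte genes Gfap was higher (0.56), and among 8 oligodendrocyte genes Cldn11 was higher (0.24). The part of these tissues, and of choroid plexus, in the members' differences was not tested.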

How the data were processed

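The cortex of 47 mice was sequenced, 1 library per mouse. The deposited TPM values were made by the authors with Salmon and the GENCODE comprehensive annotation, and the deposited counts, in a table named for another unit but holding whole numbers, were made per the labels with STAR, featureCounts and mm10. The labels name NovaSeq and HiSeq platforms without saying which library ran on which, so the part of the sequencer in any difference was not tested.

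Groups followed the labels. Genes averaging 1 TPM or more were fitted on log2(TPM + 1) with limma 3.58.1 (R 4.3.3), with diet, cosine and sine of a 24-h period, and Benjamini-Hochberg adjustment at 0.05. The log2(TPM + 1) scale understates changes of low genes. The interaction of diet and time terms tested the rhythm. Alternatives were edgeR 4.0.16 and DESeq2 1.42.0 on the counts, FPKM computed from counts and summed exon length, other scalings, filters, covariates, a pseudocount of 0.1, and each library left out. The choroid plexus covariate was chosen after seeing the data. Fits were tested on simulated data.

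Named members were those called, the 3 highest and the lowest of each complex, isoform and paralog members, the smallest p of each complex per test, the Sdh genes and complex I core subunits. The values of 1 member are not reported here. The members and lists were chosen with earlier results of these data known. Of the members, 31 overlap exons of another gene, 27 of them on the opposite strand, where unstranded reads cannot be told apart. Replicates were separate mice, and the closest of 69 within-group pairs differed by more than sampling noise (chi-square per degree of freedom 4.30).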

Additional observations from a re-analysis of the deposited data

Results flagged for a closer look

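In 3 of 99 groups of 4 mice tested, 1 mouse stood apart from the other 3 by Dixon's criterion, which chance exceeds in about 1 in 20 groups. The complex I level, as mean log2(TPM + 1), was 8.02 in replicate 3 of PLX5622 mice at ZT22, against 7.89 to 7.91 in the others. The ATP synthase level was 8.82 in replicate 4 of PLX5622 mice at ZT10, against 8.91 to 8.92. Ndufc1 had 6.94 on the log2(TPM + 1) scale in replicate 4 of control mice at ZT22, against 7.22 to 7.25.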

How the results depend on the processing

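For diet, 3 members of 84 and 503 of all 14580 genes were called. With 3 residual principal components added, 8 members (6 higher, 2 lower) and 2428 of 14580 genes were called. These components came from residuals of the diet and time fit, so they shrink the spread and leave the differences unchanged. The mitochondrial share as a covariate gave 5 members and 987 genes, and edgeR without a filter 1 member and 1278 of 37182 genes. When each library was left out, 3 to 4 members were called. For time of day, where 0 members and 767 of all genes were called, 3 residual principal components gave 10 members and 4068 genes. FPKM and ZT as a factor gave 2 members each, with 1880 and 1609 genes called. Median-of-ratios scaling, upper-quartile scaling and the mitochondrial share gave 1 member each, with 1336, 1347 and 1125 genes. The count fits edgeR and DESeq2 also gave 1 member each, with 2066 and 2406 genes. Leaving out each library gave 0 to 1 member (1 without replicate 2 of control mice at ZT6). Within control mice, where 0 members and 88 of all genes were called, 3 residual principal components gave 2 members and 2345 genes. Within PLX5622 mice, where 0 members and 212 genes were called, the components gave 14 members and 2371 genes. There, ZT as a factor gave 3 members and 343 genes. DESeq2, FPKM and eBayes with a trend gave 1 member each, with 722, 469 and 219 genes. Leaving out each library gave 0 to 1 member within PLX5622 mice. The 1 was Ndufab1, called without replicate 3 of PLX5622 mice at ZT10, replicates 1 and 4 of PLX5622 mice at ZT22, and replicate 4 at ZT10, replicate 1 at ZT22 and replicate 1 at ZT6 of control mice. No setting called a member for a difference in rhythm. The cause of these changes was not tested.

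With the replicate number as a block (replicate block), 3 members and 578 of 14580 genes were called for diet. For time of day 0 members were called, and within PLX5622 mice 1 member and 270 genes. The labels do not say what a number shares. Same-numbered samples across groups had deviations correlated at a median of 0.10 (-0.44 to 0.41 over 253 pairs), against -0.040 for other pairs. Whether a number marks a shared batch was not tested.

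The Ndufab1 difference turned to -0.072 in edgeR, -0.066 in edgeR without a filter, -0.074 in DESeq2 and -0.049 in FPKM, and that of Ndufc1 to -0.0017 in DESeq2. Ndufc1 missed the threshold with median-of-ratios scaling (0.25, adjusted p = 0.083 in limma) and upper-quartile scaling (0.25, adjusted p = 0.084 in limma). The median differences of the 5 complexes lay between -0.068 (complex IV) and 0.027 (complex I) under the alternatives run, with changes of sign for complexes I, II and III and ATP synthase. Depth limits Cox8b, at 2 to 40 counts per library.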
